A study of Homo sapiens with 2 samples.

Results

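The genes described here are 35 targets that estrogen induces in luminal breast cells, from the trefoil factor TFF1 to the cyclin gene CCND1. They were chosen by name, with earlier results of these data known. Each was taken as the rows of both transcript tables that carry its symbol, and together they are 35 of the 25240 genes in the tables. RNA was measured in 2 libraries of T47D, an established human breast cancer line that the labels class as luminal A. The control, shNT, was cells transduced with a non-targeting hairpin, and shRON was cells transduced with a hairpin against RON, the receptor tyrosine kinase encoded by MST1R. Both were selected in puromycin at 5 ug/mL, kept in 1 ug/mL, and grown in high-glucose DMEM with 10% serum. The labels mention no added hormone and no hormone-depleted serum, and they name neither the hairpin sequence nor a clone. There was 1 library per group, so nothing here was tested. Every difference describes these 2 libraries, and fewer expressing cells and less RNA per cell cannot be told apart.

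Estrogen receptor alpha, the product of ESR1, is a nuclear receptor that binds estradiol and attaches to DNA at estrogen response elements. Many of these lie in enhancers that the factors FOXA1 and GATA3 keep accessible. In luminal breast cells the bound receptor raises transcription of secreted proteins, of growth factor regulators, of the progesterone receptor and of genes that drive entry into the cell cycle, and it lowers another set that includes growth-restraining and death-promoting genes.

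The hairpin's target, MST1R, measured 12.1 FPKM in shNT against 9.10 in shRON. Its FPKM ratio of 0.749 (approximate counting interval 0.675 to 0.832) left the target itself inside the 1.5-fold rule applied to the 35 genes. FPKM counts sequenced fragments per kilobase of transcript, scaled to the size of the library. The coverage column corresponded to an estimated 11883333 fragments in shNT and 11478889 in shRON. Both libraries carried a luminal pattern: all 8 luminal markers stood at 23.7 FPKM or more in both, led by the keratin gene KRT8 at 3839 and 2634 FPKM. The luminal markers summed to 8704 FPKM in shNT against 6481 in shRON, mostly from KRT8, KRT18 (1465 and 1113) and KRT19 (2719 and 2079). Of the 8, 5 were lower in shRON by any amount, against 46.1% of genes at 1 FPKM or more in a library. By 1.5-fold, 2 of the 8 were lower (CDH1 and ESR1) and 0 higher, against 8.84% and 9.95% of those genes. EPCAM, FOXA1 and GATA3 were not lower. None of the basal markers KRT5, KRT14 and TP63 reached 1 FPKM, but their sum was 0.365 FPKM in shNT against 1.34 in shRON. KRT5 was at 0.202 and 0.642 FPKM, TP63 at 0.125 and 0.698, and KRT14 at 0.0381 and a listed 0. The keratin genes KRT17 (0.523 and 5.54 FPKM) and KRT16 (1.06 and 4.03) are not on that list and were chosen after their values were seen. All 4 immune markers were listed at 0. The endothelial markers summed to 7.22 and 7.66 FPKM, nearly all of it from ENG (7.21 and 7.65). The fibroblast markers summed to 4.02 and 5.82, mostly from the collagen gene COL1A1 (3.95 and 4.27), with COL3A1 at 0.0103 and 1.53. The part of these marker differences in the results was not tested.

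The promoters of 6 genes are shown first, because these genes mark the range of the results. AGR3, PDZK1 and CA12 were among those with the lowest ratios in shRON, AGR2 is the neighbour of AGR3, and CTSD and IGFBP5 had ratios above 1. The sequences are the 250 bases before the transcription start, from RefSeq on GRCh38.p14, which is not the build of the tables. All 6 are read from the minus strand. They lie at chr7:16881984-16882233 (AGR3), chr7:16805000-16805249 (AGR2), chr1:145707401-145707650 (PDZK1), chr15:63381847-63382096 (CA12), chr11:1763928-1764177 (CTSD) and chr2:216695550-216695799 (IGFBP5). Capitals mark GGTCA, an arm of the estrogen response element, or its reverse complement TGACC.
AGR3: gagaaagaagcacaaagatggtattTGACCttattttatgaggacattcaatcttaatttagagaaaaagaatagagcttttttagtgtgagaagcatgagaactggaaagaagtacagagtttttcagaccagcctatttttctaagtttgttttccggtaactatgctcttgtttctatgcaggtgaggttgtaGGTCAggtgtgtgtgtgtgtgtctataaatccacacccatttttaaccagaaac
AGR2: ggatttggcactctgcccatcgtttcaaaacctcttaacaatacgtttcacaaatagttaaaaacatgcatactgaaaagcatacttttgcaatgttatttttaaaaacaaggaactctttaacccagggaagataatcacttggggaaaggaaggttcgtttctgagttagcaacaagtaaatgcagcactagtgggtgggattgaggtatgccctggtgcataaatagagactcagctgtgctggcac
PDZK1: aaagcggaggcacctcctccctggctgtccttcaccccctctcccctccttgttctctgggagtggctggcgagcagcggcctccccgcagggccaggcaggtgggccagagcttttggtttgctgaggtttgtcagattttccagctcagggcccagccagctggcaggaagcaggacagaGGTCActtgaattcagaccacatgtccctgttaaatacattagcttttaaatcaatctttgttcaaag
CA12: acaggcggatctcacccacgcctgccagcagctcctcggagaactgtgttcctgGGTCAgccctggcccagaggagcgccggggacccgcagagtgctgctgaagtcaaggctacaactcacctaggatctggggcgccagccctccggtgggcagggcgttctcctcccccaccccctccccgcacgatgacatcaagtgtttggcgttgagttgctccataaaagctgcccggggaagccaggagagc
CTSD: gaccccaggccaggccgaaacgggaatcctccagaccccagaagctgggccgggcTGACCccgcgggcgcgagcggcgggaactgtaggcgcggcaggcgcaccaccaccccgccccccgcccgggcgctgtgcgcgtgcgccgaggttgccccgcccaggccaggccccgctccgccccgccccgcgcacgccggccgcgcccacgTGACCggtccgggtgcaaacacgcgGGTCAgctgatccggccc
IGFBP5: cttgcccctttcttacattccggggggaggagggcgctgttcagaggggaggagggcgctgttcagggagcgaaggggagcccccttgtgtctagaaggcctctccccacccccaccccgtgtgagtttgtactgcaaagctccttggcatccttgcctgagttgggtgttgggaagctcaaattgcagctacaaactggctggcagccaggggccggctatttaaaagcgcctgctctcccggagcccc

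The full response element, searched as GGTCA, any 3 bases and TGACC, which reads the same on both strands, was in none of these windows. A window was found for 24 of the 35 genes. Only the first listed window of each gene was searched, here and for all promoters. OLFM1 and PKIB had 3 windows and PDZK1 and TSKU had 2, so their other windows were not searched. TFF1, TFF3, GREB1, CCND1, RERG, KRT13, FKBP4, EGR3, ADCY9, MAPT and WISP2 had no entry. The full element was in 0 of the 24 and in 12 of 27305 RefSeq promoters (0.0439%). The arm, searched as GGTCA on both strands, was in 8 of 24 (33.3%), against 33.1% of all promoters, so the share was near the background. AGR3 held it 225 and 54 bases before the start, PDZK1 at 68 and CA12 at 196. CTSD, whose level in shRON was above that in shNT, held 3 copies, at 195, 43 and 18 bases. The other genes with a match were ANXA9, CXCL12, RAPGEFL1 and SLC39A6. The arm was in 6 of the 12 genes with a window that were at least 1.5-fold lower in shRON. It was in 2 of the other 12, against 33.1% of all promoters. The copies numbered 7 and 4, and a link between the arm and the direction was not tested. These are matches of letters in a short window, and the receptor also acts from distant enhancers that were not searched.

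Most of the 35 genes were lower in the shRON library. For each gene, 1 was added to both FPKM values and the shRON value divided by the shNT value. The added 1 draws ratios toward 1, most for genes with low FPKM. The ratios are given as log2, and a gene was counted as higher or lower at 1.5-fold. By this rule 18 of 35 (51.4%) were lower, against 8.84% of the 12484 measured genes, those at 1 FPKM or more in at least 1 library. Only IGFBP5 was higher, against 9.95% of measured genes. At 2-fold, 10 of the 35 were lower and 0 higher, against 2.17% and 3.32% of measured genes. The median log2 ratio was -0.60 over the 35 genes and 0.04 over all measured genes. A log2 ratio below 0 was found in 27 of the 35. Among the 33 that were measured genes it was found in 25, against 46.1% of all measured genes, ratios near 0 included. The filter of 1 FPKM was passed by 33 of the 35. EGR3 and KRT13 did not pass it, and ELOVL2 passed through shNT only, so it had to be lower. At the edge of the rule, FKBP4 (-0.60) was just inside and SIAH2 (-0.27) the next outside, while IGFBP5 (0.63) was just inside and TSKU (0.58) just outside. OLFM1 (-1.01) was just inside the 2-fold rule and CCND1 (-0.999) just outside. The FPKM ratio of CCND1, with nothing added, was 0.488.

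**Figure D1:**
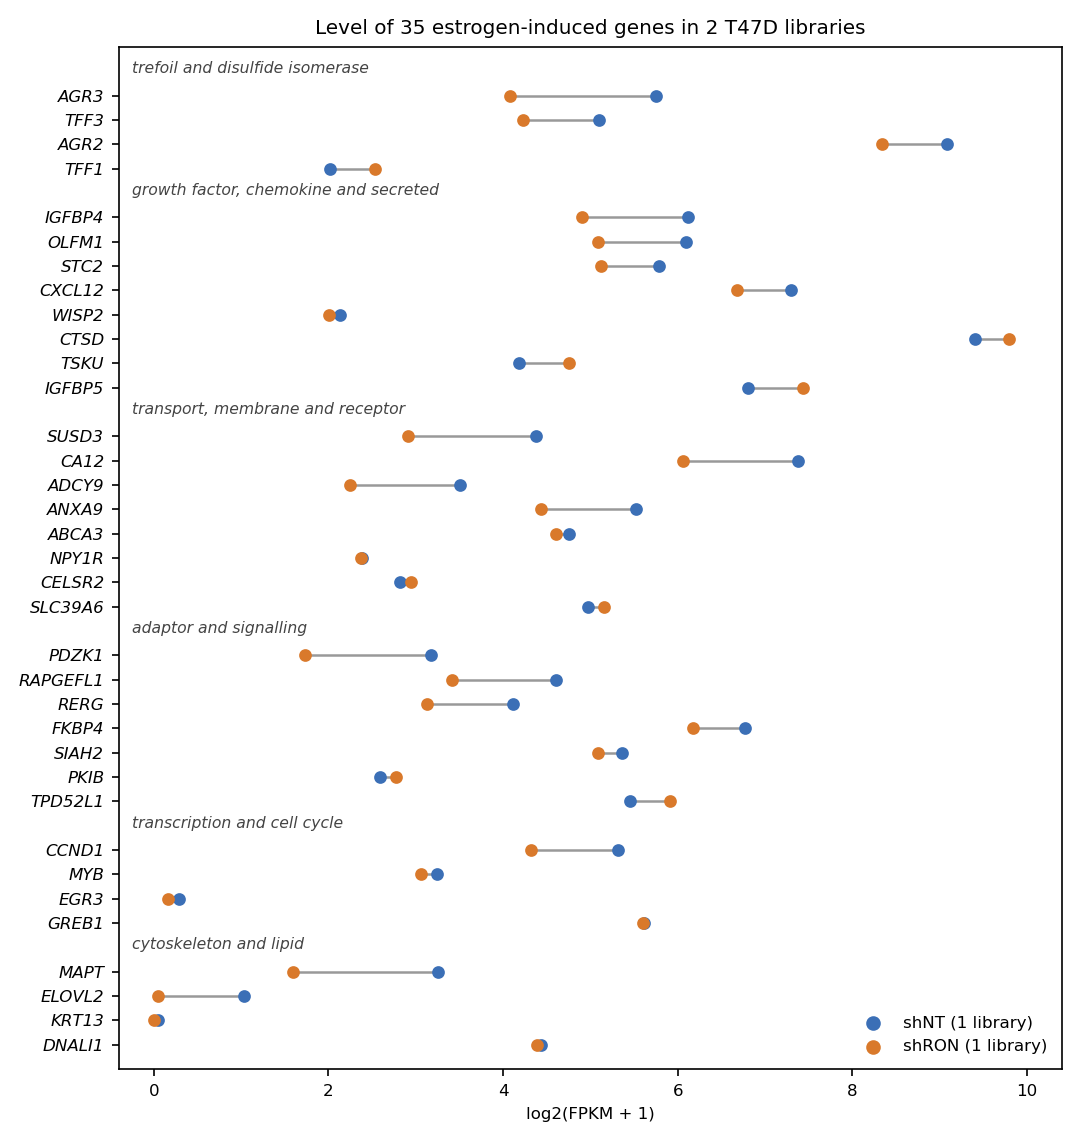
Level of each of the 35 estrogen-induced genes in the shNT library (blue) and the shRON library (orange), as log2(FPKM + 1), grouped by role and ordered by log2 ratio within a role. Each point is 1 library, so there is no error bar; the orange point lies left of the blue one in 27 of 35 genes.

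The secreted trefoil peptides and the disulfide isomerases, grouped here by role, included 3 lower genes of 4. TFF1 and TFF3 are small peptides that protect mucous surfaces, and AGR2 and AGR3 are disulfide isomerases of the endoplasmic reticulum that help secretory proteins fold. AGR3 was at 52.8 FPKM in shNT against 15.8 in shRON, a log2 ratio of -1.67 and the lowest of the 35 with 1 added to each value. By FPKM alone, ELOVL2, MAPT and PDZK1 had lower ratios, as did KRT13, which did not pass the filter and was listed at 0 in shRON. The FPKM ratio of AGR3, 0.300, had an approximate 95% Clopper-Pearson interval of 0.252 to 0.356. Such intervals rest on estimated fragments, here 597 and 174, and cover counting error only, not the spread between cultures. AGR2, on the same strand of chromosome 7 and 54.3 kb away, was far more abundant, at 543 and 322 FPKM (-0.75). The interval of its FPKM ratio, 0.573 to 0.616, did not overlap that of AGR3, so the 2 neighbours differed in size of ratio beyond counting error. TFF3 was at 33.1 and 17.8 FPKM (-0.86). TFF1, the classical estrogen marker, was low in these cells, at 3.05 and 4.80 FPKM (0.52), from an estimated 23 and 35 fragments. Its interval of 0.905 to 2.79 included a ratio of 1, so no difference in TFF1 was detectable at this depth. TFF1 and TFF3 lie 46.7 kb apart on chromosome 21.

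Among the other secreted and lysosomal proteins, 4 of 8 were lower and 1 was higher. The insulin-like growth factor binding proteins, which hold growth factors away from their receptor or present them to it, went in opposite directions. IGFBP4 was at 68.3 FPKM in shNT against 28.8 in shRON (-1.22), whereas IGFBP5 was at 111 and 173 FPKM (0.63). Their FPKM ratios were 0.422 (0.391 to 0.456) and 1.55 (1.52 to 1.59). IGFBP4 overlaps the measured gene LOC100287562, which was also lower (153.9 and 70.8 FPKM), and reads of overlapping genes could not be told apart. OLFM1, which encodes the secreted glycoprotein olfactomedin, was at 67.2 and 32.9 FPKM (-1.01). STC2, a secreted glycoprotein hormone, was at 54.2 and 33.7 FPKM (-0.67), and the median of the genes around it was -0.37. CXCL12, the chemokine that binds CXCR4, was at 156 and 102 FPKM (-0.61). Neither WISP2, a matricellular protein gene (3.40 and 3.01 FPKM, -0.13), nor TSKU, which encodes the small leucine-rich protein tsukushi (17.1 and 25.98 FPKM, 0.58), passed the rule. The most abundant of the 35 in both libraries was CTSD, the lysosomal protease cathepsin D, at 678 and 889 FPKM (0.39). From an estimated 20527 and 26500 fragments, its FPKM ratio of 1.31 had an interval of 1.29 to 1.34, narrow in counting terms yet inside 1.5-fold.

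Membrane and transport proteins divided evenly, with 4 of 8 lower, all 4 by at least 2-fold, and the other 4 between log2 ratios of -0.14 and 0.19. CA12, a carbonic anhydrase of the cell surface, was at 165 FPKM in shNT against 66.0 in shRON (-1.31), with an FPKM ratio of 0.399 (0.385 to 0.415). SUSD3, a sushi domain membrane protein, was at 19.7 and 6.50 FPKM (-1.47), in a region with a median of -0.49. Relative to that region it was at -0.97. Its 3 nearest measured neighbours, chosen after their values were seen, were lower as well: C9orf89 at 30.1 and 7.04 FPKM (-1.95), FGD3 at 4.46 and 0.849 (-1.56) and NINJ1 at 63.4 and 23.2 (-1.41). ADCY9, an adenylyl cyclase that makes cyclic AMP, was at 10.3 and 3.73 FPKM (-1.26), and ANXA9, an annexin, was at 44.8 and 20.7 (-1.08). The remaining members of this class stood close together in both libraries. ABCA3, a lipid transporter, was at 25.9 and 23.3 FPKM, and NPY1R, a neuropeptide Y receptor, at 4.22 and 4.18. CELSR2, an adhesion receptor, was at 6.04 and 6.70 FPKM, and SLC39A6, a zinc importer also known as LIV-1, at 30.3 and 34.6.

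Of the adaptor and signalling proteins, 4 of 7 were lower and none was higher by 1.5-fold. PDZK1, a scaffold that gathers membrane transporters, was at 8.06 FPKM in shNT against 2.32 in shRON (-1.45), from an estimated 238 and 65 fragments. Its FPKM ratio of 0.288 had an interval of 0.215 to 0.380, and a related pseudogene, PDZK1P1, is also in the tables, so the division of reads between them is uncertain. RAPGEFL1, related to exchange factors of Rap proteins, was at 23.3 and 9.67 FPKM (-1.19). It lies 248 kb from IGFBP4 on chromosome 17, and both had ratios near -1.2 in regions whose medians were both -0.17. RERG, a small GTPase named for its regulation by estrogen, was at 16.3 and 7.78 FPKM (-0.98). FKBP4, an immunophilin of steroid receptor complexes, was at 108 and 71.2 FPKM (-0.60). SIAH2, a ubiquitin ligase, was at 40.1 and 33.0 FPKM (-0.27). PKIB, an inhibitor of protein kinase A, was at 5.04 and 5.83 FPKM (0.18) and TPD52L1, a coiled-coil protein, at 42.8 and 59.1 (0.46). The interval of PKIB, 0.915 to 1.47, included a ratio of 1, whereas that of TPD52L1, 1.26 to 1.52, did not.

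Among the regulators of transcription and of the cell cycle, 1 of 4 was lower. GREB1, a cofactor of the estrogen receptor and one of its best known targets, was at 48.1 FPKM in shNT against 47.5 in shRON (-0.02). From an estimated 5616 and 5388 fragments, its FPKM ratio of 0.987 had an interval of 0.951 to 1.02, so a 1.5-fold difference lay outside its counting error. CCND1, which encodes cyclin D1, was at 38.9 and 19.0 FPKM (-0.999), with an interval of 0.454 to 0.523 that did not meet that of GREB1. MYB, a transcription factor gene, was at 8.45 and 7.31 FPKM (-0.19), in a region with a median of 0.40, and stood at -0.58 relative to it. EGR3, an immediate-early transcription factor, stayed at 0.225 and 0.118 FPKM, an estimated 14 and 7 fragments, too few to show a difference.

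Of the 4 cytoskeletal and lipid genes, 2 were lower. MAPT, which encodes the microtubule protein tau, was at 8.56 FPKM in shNT against 2.01 in shRON (-1.67), with an FPKM ratio of 0.235 (0.197 to 0.278). DNALI1, an axonemal dynein light chain gene, was at 20.6 and 20.01 FPKM (-0.04). It overlaps the measured gene GNL2. ELOVL2, an elongase of polyunsaturated fatty acids, was at 1.04 and 0.0358 FPKM, from an estimated 61 and 2 fragments, with a ratio of 0.0344 and a wide interval of 0.00408 to 0.130. KRT13, a keratin gene, had 0.0362 FPKM in shNT and a listed value of 0 in shRON, so it was not expressed at a level that these libraries could compare.

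The 18 lower genes were spread over 12 chromosomes. Each gene was set beside the median log2 ratio of the measured genes that start within 5 Mb of it. The median of the 35 regional medians was 0.08, and the median of the 35 genes relative to their regions was -0.58. With the regional median subtracted, 17 of the 18 remained at least 1.5-fold lower, STC2 (-0.30) being the exception, and IGFBP5, at 0.44, was no longer past the rule. CXCL12 and RERG stood in regions that were higher, with medians of 0.31 and 0.23, and were at -0.93 and -1.20 relative to them.

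**Figure D2:**
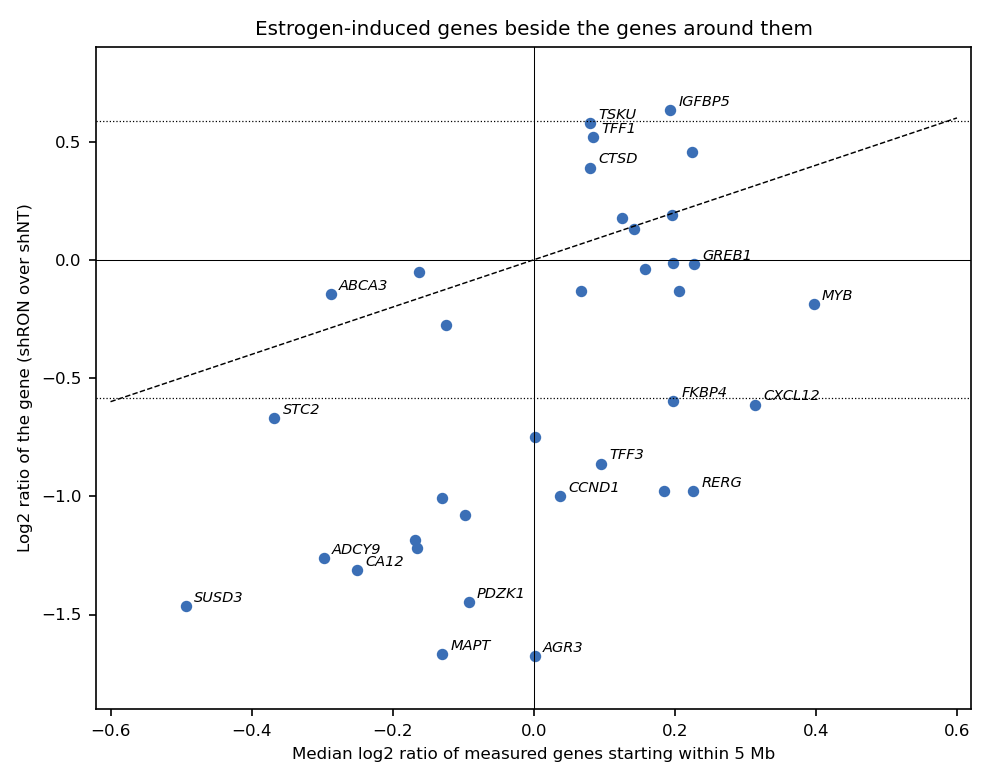
Log2 ratio of each of the 35 genes (vertical axis, shRON over shNT) against the median log2 ratio of measured genes that start within 5 Mb of it (horizontal axis). The dashed line marks equal values and the dotted lines 1.5-fold; 27 of 35 genes lie below the dashed line.

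A single transcript is listed for 24 of the 35 genes, and 6 have 2 or more transcripts at 1 FPKM in a library. Cufflinks divides reads among overlapping transcripts by an estimate, so these values are less certain than the gene sums. All transcripts of MAPT at that level were lower (3 of 3, log2 ratios of -1.32 to -1.08), as were both of OLFM1 (-0.997 and -0.93) and both of RERG (-0.95 and -0.58). The 3 transcripts of GREB1 stayed between -0.03 and 0.13. CXCL12 was uneven: its most abundant transcript, NM_199168.3, was at 85.8 and 63.5 FPKM and the longer NM_000609.5 at 68.5 and 35.4, while the minor NM_001033886.2 was at 1.03 and 2.85. With the most abundant transcript alone the log2 ratio of CXCL12 was -0.43, inside 1.5-fold. TPD52L1 was divided as well, with NM_003287.2 at 16.1 and 27.1 FPKM and NM_001003397.1 at 17.8 and 17.6.

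**Figure D3:**
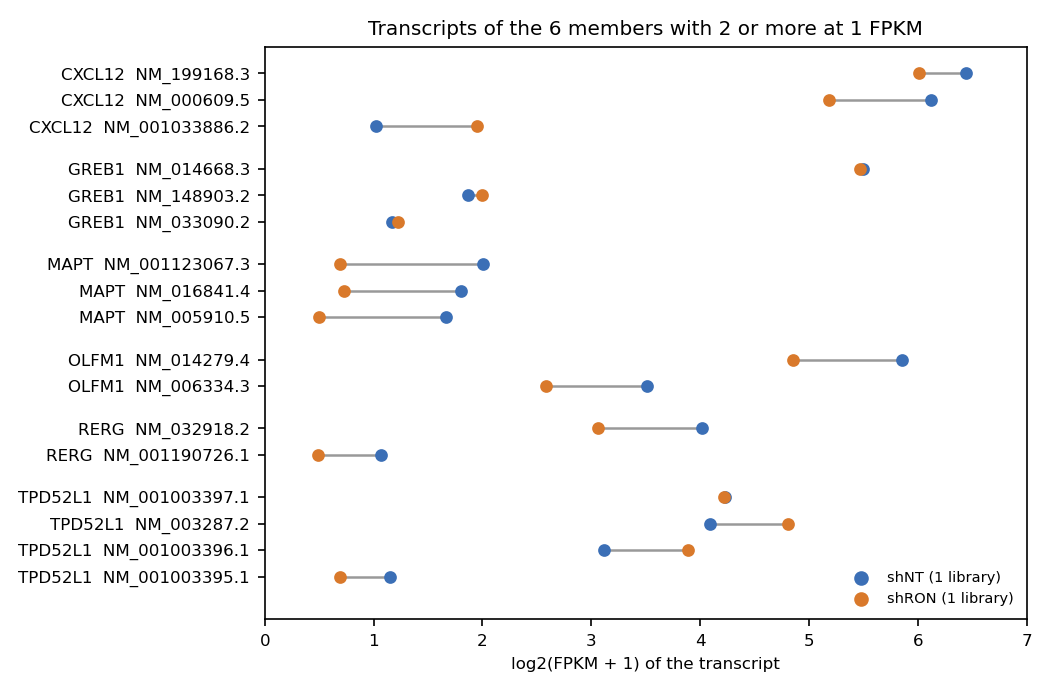
Level of each transcript, as log2(FPKM + 1), for the 6 genes with 2 or more transcripts at 1 FPKM, in shNT (blue) and shRON (orange), 1 library each. The transcripts of MAPT, OLFM1 and RERG lie to the left in shRON, those of GREB1 nearly coincide, and those of CXCL12 and TPD52L1 go both ways.

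Of the receptor genes and their partner factors, 2 of 11 were lower and 1 was higher, against 8.84% and 9.95% of measured genes. ESR1 was at 36.7 FPKM in shNT against 23.7 in shRON (-0.61), with an FPKM ratio of 0.646 (0.612 to 0.682), and ESR2, the second estrogen receptor gene, stayed under 1 FPKM. FOXA1 was at 143 and 144 FPKM (0.01) and GATA3 at 223 and 269 (0.27). The factor gene TFAP2C (34.9 and 33.5 FPKM) was inside 1.5-fold, and so were NCOA1, a coactivator gene (5.43 and 5.56), and NRIP1, a corepressor gene (6.10 and 7.602). The coactivator gene NCOA3 was higher, at 21.2 and 39.5 FPKM (0.87). PGR, itself a target, was the other lower gene. The filter was passed by 8 of the 11, and the median log2 ratio of the list was 0.03.

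A further 30 genes often described as estrogen-induced, none of them among the 35, went both ways. This list too was chosen with earlier results of these data known. By the same rule 6 of the 30 (20%) were lower and 5 higher, against 8.84% and 9.95% of measured genes. Their median log2 ratio was -0.11, or -0.04 over the 27 that passed the filter. The lower ones were PTGES, a prostaglandin E synthase gene (66.5 and 24.2 FPKM, -1.42), IRS1, an adaptor of the insulin and IGF1 receptors (7.99 and 2.70, -1.28), and the small heat-shock protein gene HSPB8 (36.6 and 16.0, -1.14). They also included PGR, the progesterone receptor gene (76.7 and 35.1 FPKM, -1.11), the scaffold gene SLC9A3R1 (279 and 141, -0.97) and the carnitine transporter gene SLC22A5 (7.89 and 4.58, -0.67). The higher ones were CALCR, the calcitonin receptor gene (0.226 and 4.11 FPKM, 2.06), SERPINA3, a protease inhibitor gene (15.0 and 45.3, 1.53), PRSS23 (3.25 and 6.75, 0.87), IL17RB (11.2 and 20.9, 0.84) and the kinase gene SGK1 (0.377 and 1.34, 0.76). CALCR and SGK1 passed the filter through shRON only and so had to be higher. XBP1, a transcription factor gene, was nearly level at 630 and 664 FPKM, as was BHLHE40 at 88.2 and 88.3.

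Genes described as estrogen-repressed were on the other side of 0. All 9 had log2 ratios above 0, 5 were at least 1.5-fold higher, and the median was 0.59. Of measured genes, 53.9% were above 0 and 9.95% were 1.5-fold higher, and this list too was chosen with earlier results of these data known. The 5 were PSCA, a cell surface antigen gene (0.512 and 3.57 FPKM, 1.59), which passed the filter through shRON only, BTG2, an antiproliferative gene (3.94 and 9.25, 1.05), and the death-promoting BIK (3.26 and 6.84, 0.88). BCL3, a regulator of NF-kB (17.4 and 30.3 FPKM, 0.76), and BMF, another death-promoting BCL2 relative (3.98 and 6.50, 0.59), completed them. The other 4 were TP53INP1 (12.9 and 19.5 FPKM), CCNG2 (27.7 and 38.2), ERBB2 (42.2 and 53.7) and BLNK (6.89 and 7.71), between 0.14 and 0.56. All 9 also lay above their own regional median.

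**Figure D4:**
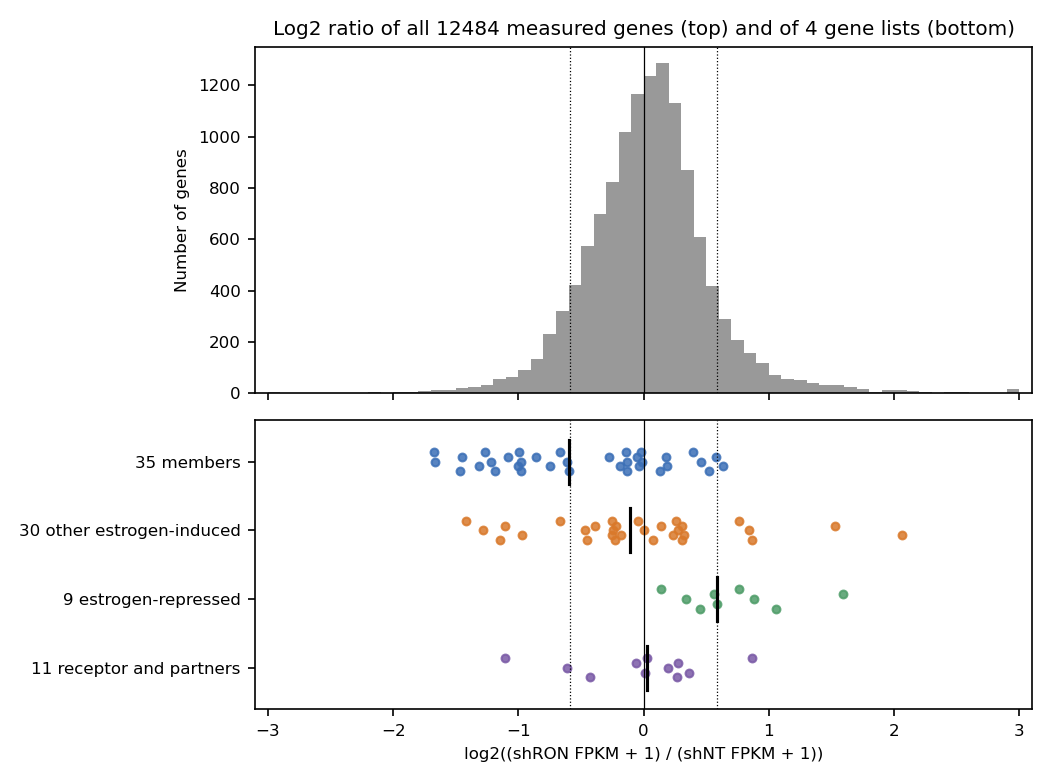
Top, log2 ratios of all 12484 measured genes, with values beyond the axis drawn in the end bins. Bottom, each gene of 4 lists as a point (vertical position within a list has no meaning) with the median of the genes listed as a bar; dotted lines mark 1.5-fold, and the medians are -0.60, -0.11, 0.59 and 0.03 from top to bottom.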

How the data were processed

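Total RNA was extracted with TRIZOL and made into libraries with a TruSeq RNA kit, per the labels' protocols, which do not state strand. The authors deposited 1 table per library in the layout of Cufflinks, with FPKM per RefSeq transcript and a coverage column, which is a signal of mean read depth, per the file headers. The build is hg19 and DESeq is named without a role, per the submitters' processing notes. Aligner and versions were not given in the sources used here. For the control, the table's name says wild type and the label a non-targeting hairpin, and the label was used.

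The 37839 transcripts were joined by identifier and FPKM was summed per gene, with python 3.11.15 and pandas 2.3.3. Small RNA genes and genes under 1 FPKM in both libraries were left out of the measured set. A pseudocount of 1 was used. Fragments were estimated as coverage times length over the bases of a read pair, 244 in shNT and 241 in shRON, the medians of products between 150 and 325 bases among genes with 1 transcript. The size rule and the interval were tested on simulated data. Each of the 35 genes is named, and the comparison lists are given by counts with the genes past 1.5-fold named; the 35 genes, the lists and the rules were chosen with earlier results of these data known. A further 2 genes of the comparison lists were left out of all their counts and are not reported here. Promoter letters came from RefSeq, and protein sequences were not used here. Alternatives were the pseudocount, the filter, the transcripts used, and removal of the overall median, the expression trend (a running median over 501 genes) or the regional median.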

Additional observations from a re-analysis of the deposited data

How the results depend on the processing

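With 1 library per group, replicate spread was not measured, and the alternatives cover processing only. No paired analysis was possible because each group has 1 library. Between 16 and 18 genes of the 35 were at least 1.5-fold lower under the 9 alternatives, and all were among the 18. The share of all genes kept that were 1.5-fold lower, 8.84% in the main setting, changed too. It was 11.8% with a pseudocount of 0.1, 3.72% with 5 and 4.81% without the filter. It was 8.47% with a mean of 5 FPKM or more and 9.48% from the most abundant transcripts. Such shares were not computed where a median or the trend was removed, nor for the 2-fold and higher counts below. CXCL12 and FKBP4 dropped out with the expression trend removed, CXCL12 from its most abundant transcript, FKBP4 and ELOVL2 with a pseudocount of 5, ELOVL2 with a mean of 5 FPKM or more, and STC2 with regional medians subtracted. The count at 2-fold, 10, was 4 with a pseudocount of 5, and 13 with a pseudocount of 0.1 or with the overall median set to 0. The count of higher genes was 3 with a pseudocount of 0.1, 2 from the most abundant transcripts, and 0 relative to the regional medians. The median of the genes that passed the filter, -0.61, ranged from -0.75 to -0.50. The median of the other estrogen-induced genes was -0.20 with a mean of 5 FPKM or more, a filter that leaves 22 of them in place of 27. Of the 9 estrogen-repressed genes, all that were kept stayed above 0 under each alternative. With regional medians subtracted, 20 of 33 single-gene ratios moved by more than their counting error and 13 by less. Under the 9 alternatives, several of which leave most single ratios as they were by construction, 0 ratios past 1.5-fold changed sign. Depth limits TFF1, EGR3, KRT13, WISP2 and ELOVL2.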

Other observations

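Genes beside the 3 pairs of members that lie within 1 Mb of each other were looked at after their values were seen. At the AGR2 and AGR3 locus, TSPAN13, a tetraspanin gene 8.10 kb from AGR2, measured 312 FPKM in shNT against 172 in shRON (a log2 ratio of -0.86), BZW2 was at 70.1 and 54.0 (-0.37) and ANKMY2 at 7.49 and 8.12 (0.10). Near TFF1 and TFF3, the serine protease gene TMPRSS3 was at 0.673 and 1.38 FPKM (0.51), the sterol transporter gene ABCG1 at 5.08 and 3.59 (-0.41), RSPH1 at 2.003 and 0.585 (-0.92) and SLC37A1 at 9.93 and 11.8 (0.23).

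Around RAPGEFL1 and IGFBP4 on chromosome 17, the thyroid hormone receptor gene THRA was at 11.9 and 5.48 FPKM (-0.997) and the replication gene CDC6 at 13.7 and 5.53 (-1.17). RARA, the retinoic acid receptor alpha gene, was at 36.3 and 30.6 FPKM (-0.24) and the topoisomerase gene TOP2A at 41.7 and 34.2 (-0.28). The exon junction complex gene CASC3, 5.81 kb from RAPGEFL1, was at 30.9 and 30.2 FPKM (-0.04). Lower and level genes were interspersed along this stretch.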
